A study of Mus musculus with 6 samples.

Results

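The genes described here are 10 mouse genes of cytokine feedback: the SOCS family genes Cish, Socs1, Socs2, Socs3, Socs4, Socs5 and Socs7, the kinase genes Pim1 and Pim2, and the PIAS family gene Pias1. They were taken by name as a gene family, and no measured value enters the rule, though earlier results of these data were known when they were chosen. Of these, 7 had a row among the 8520 genes of the deposited table, and Cish, Socs1 and Socs2, which had none, were not analysed here. Every row of the table reached at least 10.01 CPM (reads of a gene per 1000000 reads of its library) in 2 or more libraries, and the 7 genes reached at least 16.9 CPM in all 6 libraries, so none of them was listed through 1 population alone.

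RNA was sequenced from natural killer (NK) cells, cytotoxic lymphocytes of the innate immune system, sorted without prior treatment. They came from 20 C57Bl/6Ncr mice aged 6 to 8 weeks, whose spleens supplied both populations. Both populations lacked CD3, carried NK1.1 and had their Fc receptors blocked with antibody 2.4G2. The Ly49G+ cells bound antibody 4D11, which recognises Ly49G2, and not 5E6, which binds Ly49C and Ly49I, and the Ly49I+ cells had the reverse pattern. Each population has 3 libraries, called biological replicates by the labels, which do not say how many mice each one pooled, so p-values measure only the spread between these libraries.

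Many interleukins and the interferons act on lymphocytes through receptors bound to Janus kinases (JAKs), which phosphorylate STAT transcription factors. STATs then induce inhibitors of the same pathway: SOCS proteins and CISH bind the receptors or the JAKs through an SH2 domain and, through a SOCS box, recruit a ubiquitin ligase built on elongins and a cullin. PIM kinases, also induced by STATs, are active without a further activating phosphorylation and support survival and growth. PIAS1 binds STAT proteins and acts as a ligase for the small modifier SUMO. In NK cells CISH and SOCS proteins are known as brakes on interleukin 15 signalling.

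Library totals ran from 33599679 to 40892154 reads, and each of the 7 genes had between 584 and 13333 reads per library. The sort was visible in Klra7, which encodes Ly49G (917 to 1037 CPM in Ly49G+ and 10.8 to 11.7 in Ly49I+ libraries), and in Klra9, which encodes Ly49I (74.1 to 84.1 and 990.2 to 1194 CPM). Klra3, which encodes Ly49C, the other receptor that 5E6 binds, was not higher in the Ly49I+ libraries (243 to 255 CPM in Ly49G+ and 183 to 213 in Ly49I+, log2 difference 0.30, limma adjusted p = 0.0604). All 11 NK markers examined had a row (1 called higher in Ly49G+ and 2 in Ly49I+), led by Gzma at 3520 CPM or more in every library. Of 16 T cell markers 9 had a row, with 6 of the 9 called higher in Ly49G+. Their summed level was 614 to 680 CPM in Ly49G+ and 449 to 480 in Ly49I+ libraries. Most of that sum came from Trdc (213 to 234 CPM in Ly49G+ and 156 to 178 in Ly49I+), Cd28 and Trbc1. Cd3e stood at 9.27 to 18.5 CPM in Ly49G+ and 0.592 to 1.22 in Ly49I+ libraries, while Cd4, Cd5, Cd6, Cd8a and Cd8b1 had no row. Of 20 myeloid and dendritic cell markers 5 had a row, summing to 1070 to 1173 CPM in Ly49G+ and 996, 1492 and 1086 in Ly49I+ replicates 1, 2 and 3. Itgax, which NK cells also express, held most of that sum, and its difference went toward Ly49G+. Of the 5, 2 were called, Lyz2 and Csf1r, and both were higher in every Ly49I+ library. Lyz2 stood at 6.41, 13.2 and 22.6 CPM in Ly49G+ and 98.6, 352 and 72.5 CPM in Ly49I+ replicates 1, 2 and 3. Csf1r stood at 1.53, 4.47 and 5.94 CPM in Ly49G+ and 41.3, 138 and 31.7 CPM in Ly49I+ replicates 1, 2 and 3. Of 13 B cell markers 4 had a row, summing to 313 to 437 CPM in Ly49G+ and 198 to 442 in Ly49I+ libraries, most of it Ighm. Of these 4, 1 was called, Cd22, higher in Ly49G+, while 2 differences went toward Ly49G+ and 2 toward Ly49I+. Of 13 erythroid and platelet markers 0 had a row. The NK, B cell and myeloid calls depended on single libraries or on the setting. The NK list had 0 without any 1 Ly49G+ replicate and 1 without Ly49I+ replicate 2 or without the intensity trend. The B cell list had 0 without Ly49G+ replicate 2 or 3, and 2 without Ly49I+ replicate 2. The myeloid list had 1 without Ly49G+ replicate 2 and 0 with a robust prior. The T cell list kept 5 calls without any 1 Ly49G+ replicate and 6 without any 1 Ly49I+ replicate. The part of these cells in the values below was not tested, and in RNA from sorted bulk cells a smaller share of expressing cells cannot be told apart from less RNA per cell.

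None of the 7 genes passed the test between the populations. The limma test over all 8520 genes called 306 genes (3.59% of the table; 1.82% higher in Ly49G+ and 1.77% higher in Ly49I+) at an adjusted p under 0.05, and 0 of the 7 were among them. At an unadjusted p under 0.05, which 19.8% of all genes reached, 1 of the 7 passed, Pim2. With the replicate number as a block, 993 genes were called (11.7%) and again 0 of the 7, with Pim1 and Pim2 at an unadjusted p under 0.05, which 28.4% of all genes reached with the block. The median log2 difference of Ly49G+ minus Ly49I+ was -0.0011 over the 7 genes and -0.016 over all genes, and the median size of the difference regardless of sign was 0.15 and 0.13. For each of the 7 the 95% interval of the difference lay within a 2-fold change in either direction, the farthest bound being 0.64 on the log2 scale, for Socs3.

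**Figure D1:**
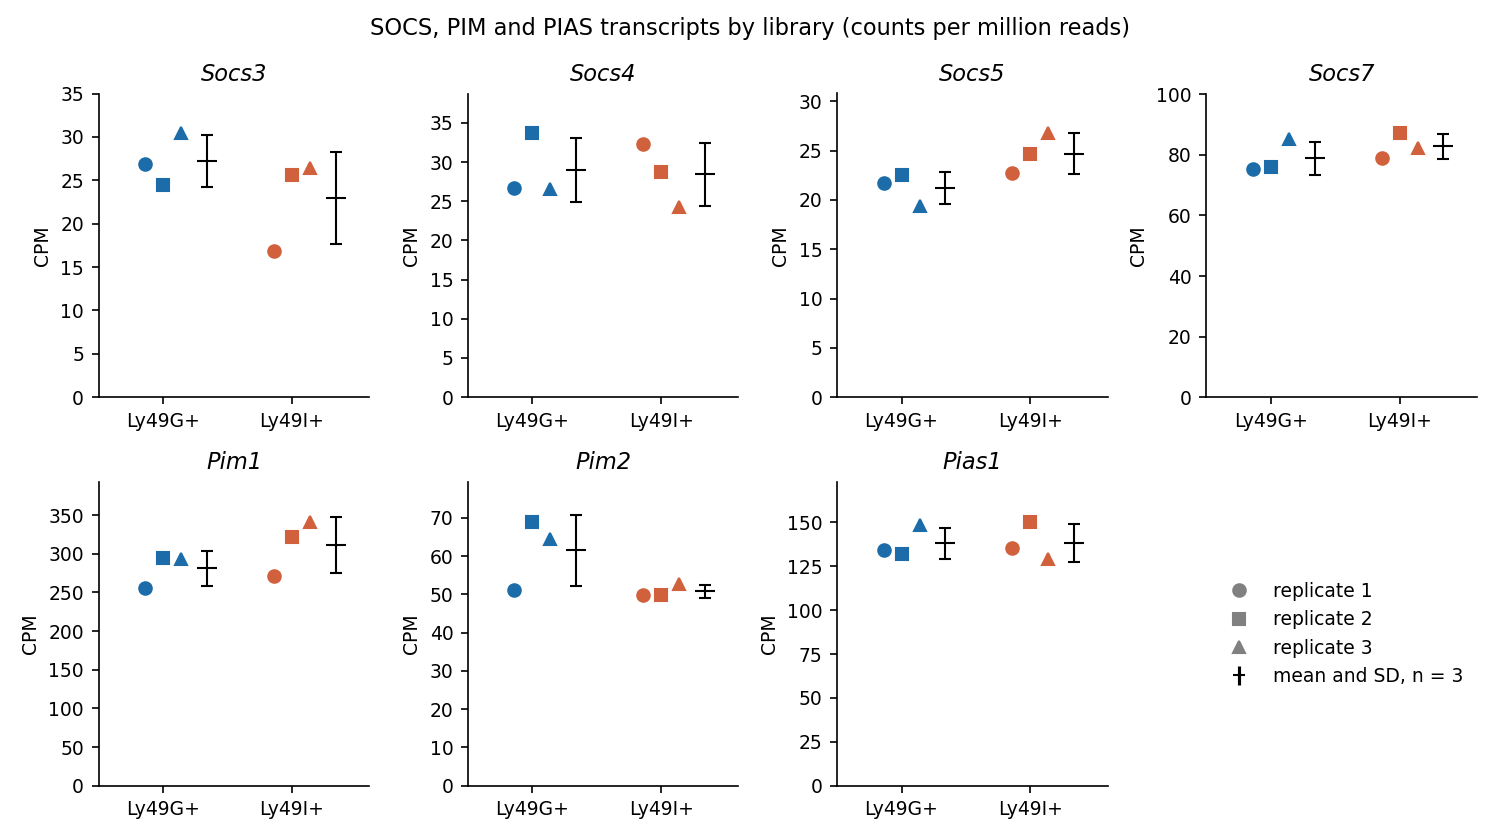
Level of each gene in CPM (vertical axis, from 0) in each library, by population (horizontal axis), with replicates 1, 2 and 3 as circles, squares and triangles and the mean ± SD of 3 libraries as a black bar. The populations overlap in every gene but Socs5, whose highest Ly49G+ value (22.5 CPM) lies just under its lowest Ly49I+ value (22.7 CPM).

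Socs3 encodes the inhibitor that binds gp130, the signalling chain of the interleukin 6 receptor family, together with the JAK beside it (gene 12702, GRCm38.p6 chromosome 11, 117966079 to 117970336). Its level was 26.9, 24.5 and 30.4 CPM in Ly49G+ replicates 1, 2 and 3 and 16.9, 25.6 and 26.5 CPM in Ly49I+ replicates 1, 2 and 3. Ly49I+ replicate 1 stood below the other 5 libraries, which overlapped. The means were 27.3 ± 3.01 and 23.0 ± 5.30 CPM (SD, n = 3 each), a log2 difference of 0.27 ± 0.17 (SE, 95% interval -0.11 to 0.64, limma adjusted p = 0.387). Without Ly49I+ replicate 1 the log2 difference was 0.06 ± 0.12 (SE, adjusted p = 0.775). Socs3 had the widest spread of the 7 genes, with a standard deviation within populations of 0.28 on the log2 scale, larger than that of 93.8% of all genes. The highest library was 1.803-fold above the lowest, which had 584 Socs3 reads and a counting error of 4.14%.

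Socs3 was the measured gene whose RefSeq promoter window held the STAT motif, and the 250 bases before that start are printed for that reason (GRCm38.p6, chr11:117969367-117969616, minus strand, 5′ to 3′ in the direction of transcription, motif in capitals). This start lies inside the gene's annotated span, so that a longer transcript may begin before it.
Socs3: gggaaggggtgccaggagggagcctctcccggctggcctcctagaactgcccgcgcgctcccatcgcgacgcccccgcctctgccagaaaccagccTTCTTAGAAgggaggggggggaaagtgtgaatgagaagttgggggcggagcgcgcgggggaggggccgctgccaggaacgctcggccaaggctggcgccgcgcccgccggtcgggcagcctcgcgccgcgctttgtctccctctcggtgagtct
The motif searched was TTCNNNGAA, which reads the same on both strands, and in Socs3 it began 154 bases before the start. It occurred in 8.30% of the 32851 windows of the promoter table, each of 250 bases before to 50 after a start. Windows were found for 7 of the 10 genes, 5 of them measured. Cish, a gene known to respond to STAT5, held 2 motifs, and 0.457% of windows held 2 or more, and the windows of Socs1, Socs4, Pim1, Pim2 and Pias1 held 0. A match of letters is not evidence of binding, and no match says only that these letters are not in the window.

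Socs4, Socs5 and Socs7 belong to the branch of the family with long amino-terminal regions, of which Socs4 and Socs5 are known for acting on the epidermal growth factor receptor. Socs4 (gene 67296, chromosome 14, 47276920 to 47296102) stood at 26.7, 33.7 and 26.6 CPM in Ly49G+ and 32.3, 28.7 and 24.3 CPM in Ly49I+ replicates 1, 2 and 3. The populations overlapped over nearly their whole range, with a log2 difference of 0.03 ± 0.13 (SE, 95% interval -0.27 to 0.33, limma adjusted p = 0.923). Its direction turned without Ly49G+ replicate 2 (-0.08) or Ly49I+ replicate 3 (-0.08).

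Socs5, which is also known as a regulator of interleukin 4 receptor signalling in T cells, was the gene in which the populations did not overlap (gene 56468, chromosome 17, 87107278 to 87137647). It stood at 21.7, 22.5 and 19.4 CPM in Ly49G+ and 22.7, 24.6 and 26.8 CPM in Ly49I+ replicates 1, 2 and 3. Every Ly49I+ library was above every Ly49G+ library (the nearest stood at 22.5 and 22.7 CPM). Populations that did not overlap were found in 25.8% of all genes, and with Ly49I+ higher in 13.4%. The log2 difference was -0.22 ± 0.11 (SE, 95% interval -0.47 to 0.03, limma adjusted p = 0.301, and 0.226 with the block), so a level up to 1.39-fold higher in Ly49I+ cells lies within the interval.

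Socs7, which binds adaptor proteins such as NCK, was the most even of the 7 genes (gene 192157, chromosome 11, 97362292 to 97398542). Its level was 75.5, 76.0 and 85.2 CPM in Ly49G+ and 79.0, 87.2 and 82.4 CPM in Ly49I+ replicates 1, 2 and 3. The highest and lowest libraries differed 1.155-fold, and the log2 difference was -0.07 ± 0.08 (SE, 95% interval -0.25 to 0.11, limma adjusted p = 0.642).

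The differences of the PIM kinases had opposite signs, and Pim2 had the smallest unadjusted p of the 7 genes. Pim1 (gene 18712, chromosome 17, 29490785 to 29496111) stood at 255, 295 and 293 CPM in Ly49G+ and 272, 322 and 342 CPM in Ly49I+ replicates 1, 2 and 3. The populations overlapped, since Ly49I+ replicate 1 lay below Ly49G+ replicates 2 and 3, but within each replicate number the Ly49I+ library was higher, by 0.09, 0.13 and 0.22 on the log2 scale. The means were 281 ± 22.3 and 312 ± 36.2 CPM (SD, n = 3 each), a log2 difference of -0.15 ± 0.10 (SE, 95% interval -0.36 to 0.07, limma adjusted p = 0.418). With the block the interval was -0.28 to -0.01 and the adjusted p 0.157. An antisense gene, Gm26885, overlaps Pim1 exons on the opposite strand, and the sources used here do not say whether the authors' counting used strand.

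Pim2, whose product is known in lymphocytes for promoting survival and protein synthesis, went the other way (gene 18715, chromosome X, 7878306 to 7883432). It stood at 51.1, 69.0 and 64.4 CPM in Ly49G+ and 49.7, 49.9 and 52.6 CPM in Ly49I+ replicates 1, 2 and 3. Ly49G+ replicates 2 and 3 were above all other libraries, while Ly49G+ replicate 1 lay within the Ly49I+ range, so the populations overlapped. The means were 61.5 ± 9.29 and 50.7 ± 1.62 CPM (SD, n = 3 each), a 1.20-fold difference (log2 difference 0.27 ± 0.11, SE, 95% interval 0.02 to 0.51, limma adjusted p = 0.223). With the block the interval was 0.07 to 0.46 and the adjusted p 0.0768, which was the lowest adjusted p of any of the 7 genes under any setting tried. Pim2 was higher in the Ly49G+ library in 3 of 3 replicate numbers, by 0.04, 0.47 and 0.29 on the log2 scale. Of all genes, 16.3% had a smaller unadjusted p than Pim2.

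Pias1, the gene of the SUMO ligase (gene 56469, chromosome 9, 62878366 to 62980879), had the difference nearest to 0. It stood at 134, 132 and 148 CPM in Ly49G+ and 136, 151 and 129 CPM in Ly49I+ replicates 1, 2 and 3. The means were 138 ± 8.92 and 138 ± 10.98 CPM (SD, n = 3 each), a log2 difference of -0.0011 ± 0.08 (SE, 95% interval -0.19 to 0.18, limma adjusted p = 0.995). The interval leaves room for a difference of up to 1.14-fold in either direction.

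**Figure D2:**
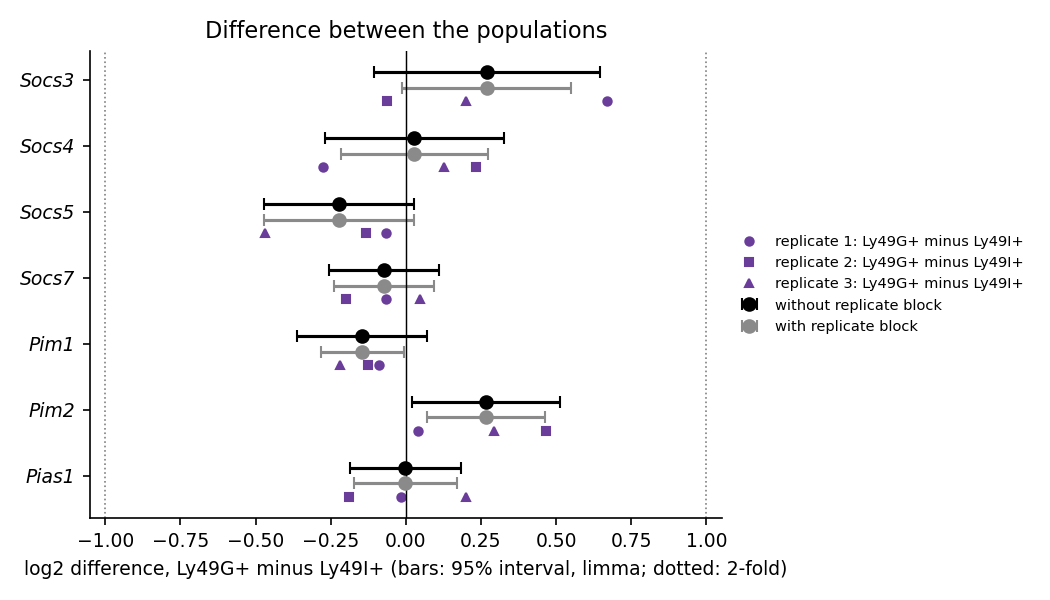
Log2 difference of Ly49G+ minus Ly49I+ (horizontal axis) for each gene, as a point with its 95% interval from limma without the replicate block (black) and with it (grey), and as the 3 differences between libraries of the same replicate number (purple). All intervals lie inside the dotted lines at a 2-fold change, and those of Pim2, and of Pim1 with the block, leave out 0.

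The levels of the genes stood in 4 steps. Set on a scale that allows for gene length, CPM per kilobase of merged exons (GENCODE M21), Pim1 led at 88.2 ± 9.41 (SD over 6 libraries), a level above that of 95.6% of the 8286 genes with a length. Pias1 (20.3 ± 1.31) and Pim2 (20.1 ± 3.00) followed, and their ranges over the libraries overlapped. Socs7 (11.1 ± 0.67) and Socs3 (8.69 ± 1.56) came next on the same scale and overlapped as well, at 10.4 to 12.002 and 5.84 to 10.5. Socs4 (4.17 ± 0.53) and Socs5 (3.58 ± 0.40) were lowest and overlapped, with Socs5 above 13.9% of genes. Between these steps the ranges over the 6 libraries did not meet. Merged exons include every annotated transcript, so a gene whose cells use a short transcript is set too low on this scale.

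**Figure D3:**
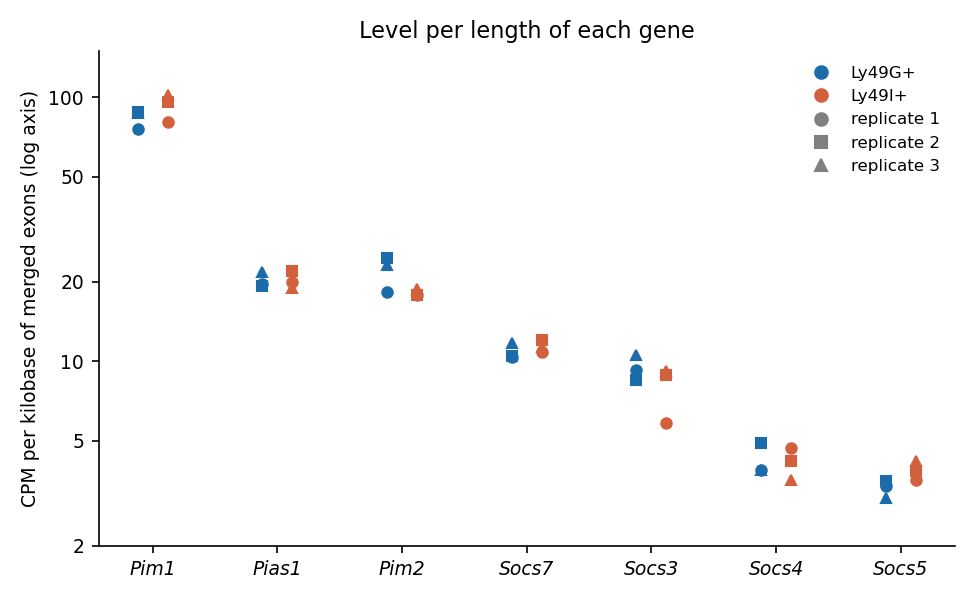
Level of each gene in CPM per kilobase of merged exons (vertical log axis) in the Ly49G+ (blue) and Ly49I+ (orange) libraries, with the replicates as circles, squares and triangles. Pim1 stands above the other genes in all 6 libraries, and Socs4 and Socs5 stand below them.

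By Pearson correlation of log2 CPM over the 6 libraries, genes whose pattern was much like that of Pim2 included the adaptor gene Scimp (r = 0.982) and the nuclear pore gene Nup133 (r = 0.980). The 6 points share their library totals, and 77 of 8519 genes had an r over 0.9. The log2 differences of Scimp and Nup133 were 0.11 ± 0.08 (SE, limma adjusted p = 0.471) and 0.08 ± 0.08 (SE, limma adjusted p = 0.605).

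The relatives of the 7 genes did not pass either. The counts below stand beside 3.59% of all genes called, or 11.7% with the block. In lists this short, 0 calls is near the share of 3.59%. All 5 other SOCS, PIM and PIAS genes examined had a row and 0 passed. Pias3, known as an inhibitor of STAT3, came nearest with a log2 difference of -0.35 ± 0.11 (SE, limma adjusted p = 0.104), and passed with the block (adjusted p = 0.0397) and without Ly49I+ replicate 1 (0.0343), higher in Ly49I+. Pias4 followed (-0.32 ± 0.13, adjusted p = 0.205), while Socs6 (-0.05 ± 0.12, adjusted p = 0.819), Pim3 (0.05 ± 0.20, adjusted p = 0.904) and Pias2 (0.14 ± 0.09, adjusted p = 0.415) lay nearer to 0. Among 10 genes listed as partners of the SOCS box in ubiquitin ligases 0 passed. The elongin C gene Eloc came nearest (0.37 ± 0.11, adjusted p = 0.110, and 0.0396 with the block). The cullin genes Cul2 (0.19 ± 0.09, adjusted p = 0.268) and Cul5 (0.18 ± 0.09, adjusted p = 0.313) came next. Of 10 other measured SOCS box genes 0 passed, Spsb3 (-0.29 ± 0.15, adjusted p = 0.300) and Asb3 (-0.22 ± 0.12, adjusted p = 0.336) having the smallest p, and of 16 genes of SUMO conjugation 0 passed, Topors (0.24 ± 0.08, adjusted p = 0.160, and 0.0440 with the block) and Senp6 (0.21 ± 0.09, adjusted p = 0.233) having the smallest p.

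Upstream of the feedback genes, 3 of 16 measured receptors that signal through JAKs rose in Ly49G+ and 0 in Ly49I+ cells, beside 1.82% and 1.77% of all genes: Il7r (log2 difference 1.99 ± 0.13, SE, limma adjusted p = 1.84e-05), Il6st, which encodes gp130, the receptor chain that SOCS3 binds (0.82 ± 0.13, adjusted p = 0.00686), and Il21r (0.69 ± 0.09, adjusted p = 0.00275). With the block 7 receptors passed, 4 higher in Ly49G+ and 3 higher in Ly49I+, beside 11.7% of all genes. Of 11 JAK and STAT genes 0 passed, with Tyk2 (-0.26 ± 0.10, adjusted p = 0.175, and 0.0421 with the block) and Stat6 (-0.18 ± 0.07, adjusted p = 0.227) nearest, and of 9 other inhibitors of the pathway 0 passed, with Usp18 (0.37 ± 0.12, adjusted p = 0.129) and the phosphatase gene Ptpn2 (0.21 ± 0.07, adjusted p = 0.162) nearest. Il6st lost its call without Ly49G+ replicate 2 (adjusted p = 0.0546). The median difference was -0.02 over the receptors and -0.10 over the JAK and STAT genes, beside -0.016 over all genes.

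Downstream, called genes went both ways, and the counts below stand beside 3.59% of all genes called, or 11.7% with the block. Of 14 measured genes that STAT5 or cytokines are known to induce, 2 rose in Ly49G+, Myc (0.53 ± 0.13, SE, limma adjusted p = 0.0442) and the survival gene Bcl2 (0.32 ± 0.07, adjusted p = 0.0368), and 3 rose in Ly49I+ cells, the granzyme gene Gzmb (-0.47 ± 0.07, adjusted p = 0.00585), the transcription factor gene Id2 (-0.42 ± 0.08, adjusted p = 0.0139) and the perforin gene Prf1 (-0.49 ± 0.10, adjusted p = 0.0253). The list's median was -0.18, 8 genes passed with the block, 2 without the intensity trend and 0 without Ly49G+ replicate 2. It gave 1 without Ly49G+ replicate 1 or 3 and 2 without Ly49I+ replicate 2. Gzmb lost its call without Ly49G+ replicate 2 (adjusted p = 0.0569), Id2 without any 1 Ly49G+ replicate (0.0673 to 0.0757), and Prf1 and Bcl2 without any 1 Ly49G+ replicate or Ly49I+ replicate 2, Bcl2 also without Ly49I+ replicate 3 (0.0588). Of 10 measured PIM substrates 1 passed, Myc, a call lost without the intensity trend, among only genes averaging at least 4 in log2 CPM (0.0506), and without any 1 Ly49G+ replicate or without Ly49I+ replicate 2. Of 24 interferon-stimulated genes 0 passed, with Ifi44 (0.78 ± 0.19, adjusted p = 0.0526, and 0.0160 with the block) and Ifit1 (0.52 ± 0.13, adjusted p = 0.0548, and 0.0260 with the block) nearest. Of 21 genes of the immediate early and handling response, a class that includes genes that rise when tissue is dissociated, 1 passed, the phosphatase gene Dusp2 (-0.47 ± 0.08, adjusted p = 0.00780), which lost its call without Ly49G+ replicate 2 (0.0649), and 4 passed with the block. That 1 of 21 (4.76%) is near the share of all genes.

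**Figure D4:**
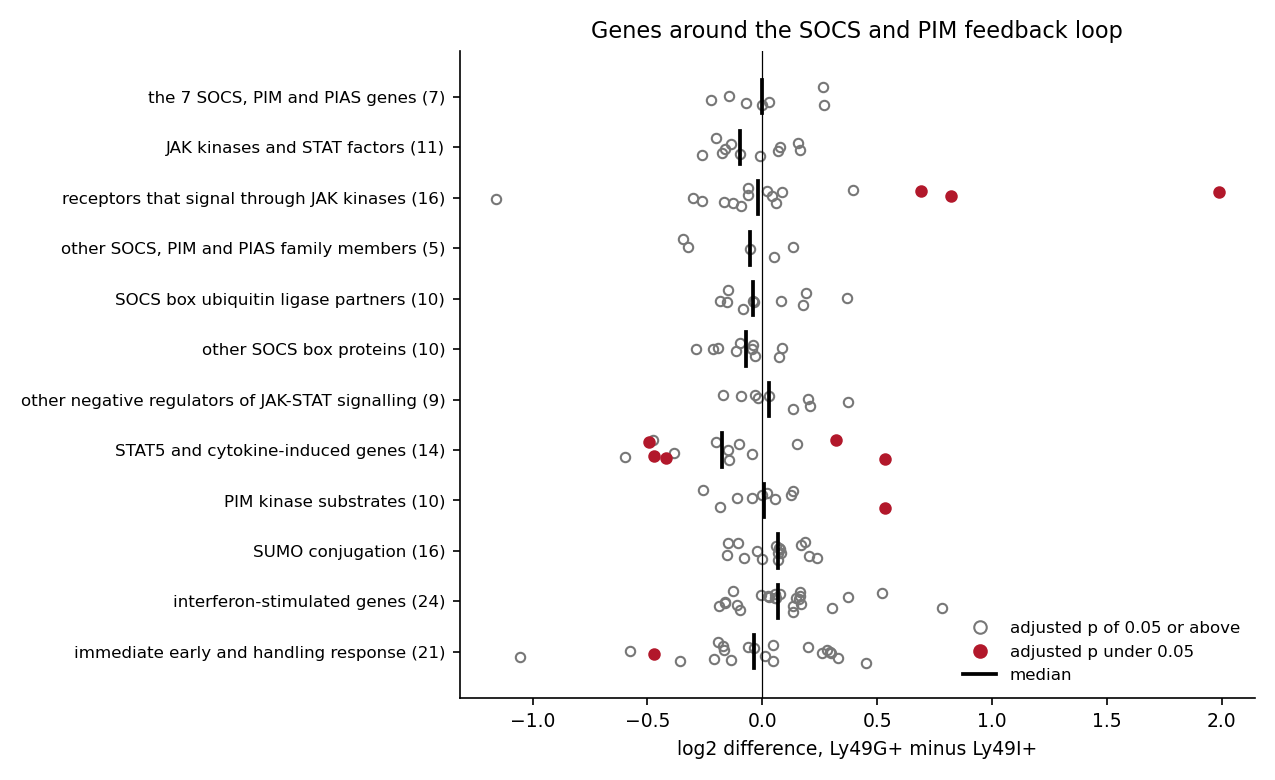
Log2 difference of Ly49G+ minus Ly49I+ (horizontal axis) for each measured gene, by gene list (vertical axis, number of measured genes in parentheses), with genes at an adjusted p under 0.05 filled in red and the list's median as a black bar. The 7 feedback genes lie between -0.22 and 0.27 with none filled, while filled points stand on both sides of 0 among the genes that STAT5 or cytokines induce.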

How the data were processed

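RNA of 3 Ly49G+ and 3 Ly49I+ libraries was analysed from 1 table. Per the labels' protocols, stranded total RNA libraries took 0.4 µg of RNA each and gave read pairs of 100 bases. The submitters' processing notes name CASAVA 1.8.2, STAR 2.3.0, limma and build mm10, and the read counter and the annotation are not stated there. The authors deposited log2 CPM in the form of limma's voom, and solving that form for the library total gave whole reads for 100% of values within 0.001 read. No deposited column was left out.

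Names came from RefSeq GRCm38.p6 by gene number for 8429 genes, and 91 had none. The deposited log2 values went into limma 3.58.1 (R 4.3.3, moderation with an intensity trend, two-sided, Benjamini-Hochberg over 8520 genes at 0.05), whose steps were tested on simulated data. Tables were handled in Python 3.11.15. The r of deviations over genes between same-numbered libraries was 0.371, 0.114 and 0.156 for numbers 1, 2 and 3. Unlike numbers ran from -0.4945 for Ly49G+ replicate 3 with Ly49I+ replicate 1 to 0.359 for Ly49G+ replicate 3 with Ly49I+ replicate 2. Ly49G+ replicate 1 gave -0.455 with Ly49I+ replicate 2 and 0.034 with Ly49I+ replicate 3. Ly49G+ replicate 2 gave 0.115 with Ly49I+ replicate 1 and -0.198 with Ly49I+ replicate 3. These values do not settle whether same numbers belong together, and the labels do not say what a number shares. A fit with the replicate number as a block is therefore given only beside the main fit. Named genes are the 10 feedback genes, up to 4 called genes per list by smallest p (2 nearest where 0 passed), and the 3 genes most like the member of smallest p, of which 1 is not reported here. Members and lists were chosen with earlier results of these data known. Intervals and depth statements cover these libraries only.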

Additional observations from a re-analysis of the deposited data

How the results depend on the processing

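The 7 feedback genes gave 0 calls under all 13 alternatives: the replicate block, no intensity trend, a robust prior, log2(CPM + 1), TMM scaling, quantile normalization, only genes averaging at least 4 (log2) and each library left out. Leaving out libraries gave log2 differences from 0.06 to 0.39 for Socs3, -0.28 to -0.16 for Socs5, -0.13 to -0.04 for Socs7, -0.24 to -0.08 for Pim1, 0.18 to 0.39 for Pim2, -0.08 to 0.13 for Socs4 and -0.0536 to 0.0607 for Pias1. The last pair changed sign: Socs4 was -0.0845 (Ly49G+ replicate 2 left out) and -0.0792 (Ly49I+ replicate 3 left out), and Pias1 was 0.0062 with TMM scaling, 0.0082 with quantile normalization, and 0.0187, 0.0314 and 0.0607 without Ly49G+ replicate 1, Ly49G+ replicate 2 and Ly49I+ replicate 2. Each of these values lies within the gene's 95% interval, and the cause was not tested.

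With the replicate block the count of called genes was 993 in place of 306, and by list 1 (JAK and STAT), 7 (receptors), 1 (other SOCS, PIM and PIAS), 1 (SOCS box partners), 8 (STAT5 and cytokine-induced), 2 (PIM substrates), 1 (SUMO), 2 (interferon-stimulated) and 4 (immediate early). It changed the call of no feedback gene, other SOCS box gene or other inhibitor. Without the intensity trend the STAT5 list gave 2, PIM substrates 0 and interferon-stimulated genes 2. The robust prior and quantile normalization each gave 2 interferon-stimulated genes, and the minimum mean of 4 gave 0 PIM substrates. Leaving out single libraries gave 94 to 644 calls over all genes, 0 to 0 among JAK and STAT genes, 2 to 5 receptors, 0 to 1 other SOCS, PIM and PIAS genes, 0 to 1 SOCS box partners, 0 to 6 STAT5-induced genes, 0 to 1 PIM substrates, 0 to 2 SUMO genes, 0 to 1 interferon-stimulated genes and 0 to 4 immediate early genes. Fewer libraries also lower the power of the test, and the 644 calls came without Ly49I+ replicate 1. The cause of these shifts was not tested. The planned count-based tests were not run: whole reads could be recovered, but the tests were kept to those made for the deposited log2 unit. Among the marker lists, the T cell list gave 3 and the myeloid list 1 when only genes averaging at least 4 were kept, and the block gave 2 B cell and 5 myeloid markers. With 3 libraries per population, the intervals set what size of difference could be seen, and the part of read depth in them was not tested.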

Other observations

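The balance of the PIM kinase transcripts within a library, which scaling each library by a single factor cannot change, was examined after their values were seen. Pim1 CPM was 4.995, 4.27 and 4.56 times Pim2 CPM in Ly49G+ replicates 1, 2 and 3 and 5.46, 6.44 and 6.496 times in Ly49I+ replicates 1, 2 and 3. The ratios of the populations did not overlap. Single genes did not overlap in 25.8% of cases, which is not a like background for a ratio of genes picked for opposite signs. The log2 ratio of Pim1 to Pim2 was 2.20 ± 0.11 in Ly49G+ and 2.61 ± 0.14 in Ly49I+ libraries (SD, n = 3 each), 0.41 higher in Ly49I+. The ratio was formed because the differences of these genes had opposite signs, so it is a description with no test, and Pim1 and Pim2 did not pass the test over all genes.

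Among the 7 genes the log2 levels were compared over the 6 libraries. Pearson r, given as a description over 6 points that share their library totals, ran from -0.64 for Socs3 with Socs4 to 0.74 for Pias1 with Socs7, and was 0.04 for Pim1 with Pim2.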
